A study of Brassica juncea with 2 samples.

Results

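The unigenes described here encode protein-folding helpers of B. juncea var. CS52, a variety of Indian mustard: chaperonins, DNAJ proteins, the lectin chaperones calreticulin and calnexin, protein disulfide isomerases (PDI), cyclophilins and FKBPs. A unigene is 1 assembled transcript of the authors' assembly. Members were taken by words in the deposited annotation (DNAJ, chaperonin, calreticulin, calnexin, PDI-like, disulfide isomerase, cyclophilin or FKBP, in any case), which gave 247 of 47513 unigenes. Of these, 167 were DNAJ proteins, 24 chaperonins, 4 calreticulins and calnexins, 12 PDI-like proteins, 19 cyclophilins and 21 FKBPs. The words also took in a pair of unigenes annotated as FKBP12 interacting protein 37, which is named for binding an FKBP, and a chaperonin-like RbcX protein, which assists Rubisco assembly.

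RNA came from wild type seedlings, 2 weeks old, of which about 10 were pooled for each library. One library was made after 24 h of salinity stress at 200 mM (SS) and the other from seedlings kept in water and collected at the same time (CTRL). The salinity agent is not named in the labels. With 1 library per condition, replicate spread is unknown, so differences are given as values without a test. Intervals below are 95% intervals for counting error only, and they do not cover differences between seedling pools or duplicates made by PCR.

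Chaperonins are barrel-shaped complexes that enclose an unfolded protein, and plants hold one type in chloroplasts and mitochondria and another, the TCP-1 ring complex, in the cytosol. DNAJ proteins, or J-proteins, bring clients to HSP70 and stimulate its ATPase through the J domain. In the endoplasmic reticulum (ER), calreticulin and calnexin bind sugar chains of new glycoproteins while PDI forms and rearranges disulfide bonds, and cyclophilins and FKBPs are prolyl isomerases, many of them in the thylakoid lumen of plants. Because these are bulk seedling samples, fewer cells of a type and less RNA per cell cannot be told apart.

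Levels are given in RPKM, read counts scaled to unigene length and to the number of high-quality reads. The unigenes hold 73982305 reads in SS and 77863911 in CTRL, and the folding unigenes take 495107 (0.669%) and 555100 (0.713%) of them. One read on a unigene of 1 kb is worth 0.0111 RPKM in SS and 0.0105 RPKM in CTRL. The deposited SS values carry no correction for unigene length, so they were converted with each unigene's own length before any ratio was taken. Ratios from the deposited SS values differ in sign for 25 of the 59 unigenes that the rule for named unigenes selected. Summed RPKM of green tissue markers was 20939 in SS and 23955 in CTRL (15 of 15 unigenes with reads in both libraries), of root markers 96.0 and 90.0 (21 of 21), and of seed storage markers 150.4 and 171.0 (19 of 19). Single markers differed more than the sums. Of 20 root markers with a ratio, 3 were at least 2-fold higher in SS (15%, against 1.91% of all unigenes) and none lower. Of 19 seed storage markers, 5 were at least 2-fold lower (26.3%, against 4.21%) and 1 higher. Of 15 green tissue markers, 2 were at least 2-fold lower (13.3%) and none higher. No marker unigene was at 0 in either library, and the part of tissue makeup in the ratios below was not tested.

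The folding unigenes lay close to the bulk of the transcriptome. A log2 ratio of SS to CTRL was taken after adding 0.1 RPKM to both values, for unigenes that reached 1 RPKM in one library or both, which 236 of the 247 met. The other 11 were DNAJ unigenes with low reads. The median log2 ratio of the 236 was -0.10 (95% interval of the median over unigenes -0.14 to -0.07), against -0.06 over all 43250 unigenes with a ratio and -0.10 over the 26722 of these with an annotation. The interquartile range was 0.37 for the folding unigenes and 0.49 for all unigenes. A log2 ratio above 0 was found for 86 and below 0 for 150 of the 236. Over all 43250 unigenes, 18409 were above 0 and 24841 below. Among the 26722 with an annotation, 10094 were above 0 and 16628 below, so most unigenes lay below 0 in each set.

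At least 2-fold higher in SS were 4 folding unigenes, or 1.69%, where 1.91% of all unigenes were. At least 2-fold lower in SS were 11, or 4.66%, beside 4.21% of all unigenes. Of these, Bju_CS52_R_25274, Bju_CS52_R_22400, Bju_CS52_R_19809, Bju_CS52_R_26173, Bju_CS52_NR_1009 and Bju_CS52_R_6392 met the minimum of 1 RPKM in CTRL alone. A log2 ratio below 0 is built into the choice of such unigenes, among the members and among all unigenes. With a limit of 1.5-fold, 7 were higher (2.97%, against 5.61% of all unigenes) and 26 were lower (11.0%, against 12.3%). The shares at 2-fold are near the background and the share at 1.5-fold higher is below it. Within 1.5-fold lay 86.0% of the folding unigenes and 82.1% of all unigenes. Among unigenes with an annotation, from which the members were taken, 1.26% were 2-fold higher and 4.24% lower. At 1.5-fold, 4.13% of these were higher and 13.6% lower, so the members' 2.97% lies nearer to the annotated share than to that of all unigenes. After a running trend along the unigene numbers was removed, the 2-fold split was 4 higher and 6 lower (1.69% and 2.54%, against 2.28% and 3.25% of all unigenes), and the 1.5-fold split was 9 higher and 21 lower (3.81% and 8.90%, against 7.04% and 9.76%). The unigenes nearest the 2-fold limit were at log2 ratios of 1.06 and 0.78 on the higher side and -1.03 and -0.999 on the lower side, inside and outside it. The interval of the ratio lay above 1 for 42 unigenes (17.8%, against 20.7% of all unigenes) and below 1 for 88 (37.3%, against 31.8%), and it held 1 for 106.

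**Figure D1:**
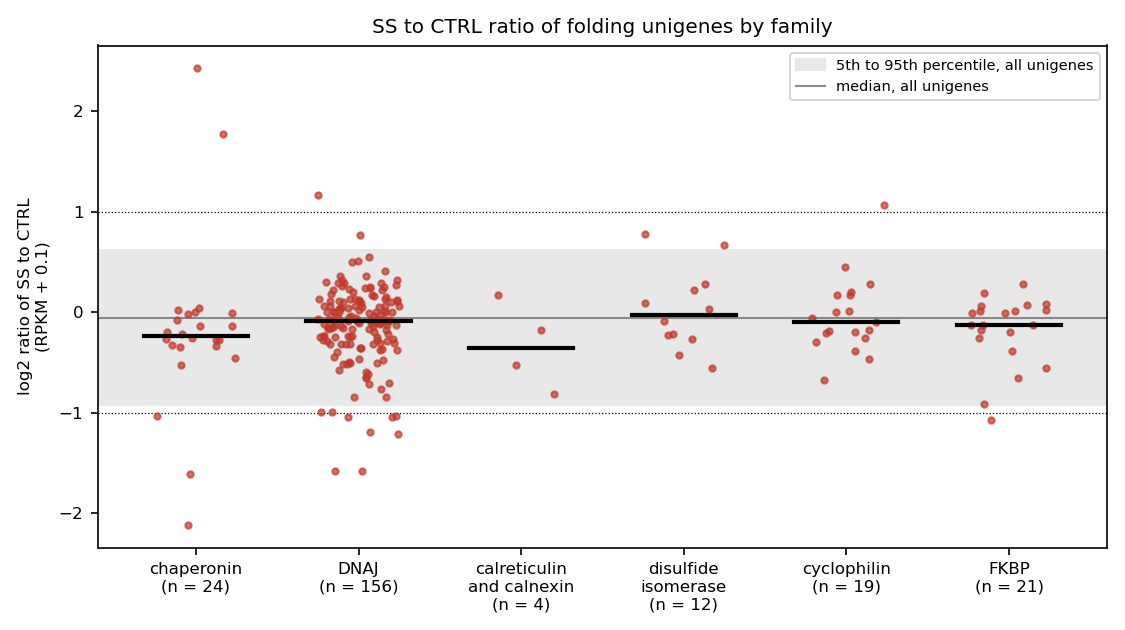
Each point is 1 folding unigene that reached 1 RPKM in one library or both, placed by family and by its log2 ratio of SS to CTRL (0.1 RPKM added to both). Black bars are family medians, the grey line is the median of all unigenes (-0.06), the grey band runs from their 5th to their 95th percentile and dotted lines mark 2-fold. Family medians lie between -0.35 and -0.03, and the points beyond 2-fold are mostly chaperonins and DNAJ proteins.

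The chaperonins held the unigenes furthest from 1 on both sides, although their interquartile range of 0.33 was below the 0.41 of the DNAJ family. All 24 unigenes had a ratio, with a median of -0.23. At least 2-fold higher were 2 (8.33%, against 1.91% of all unigenes), both of 1 B. rapa gene. At least 2-fold lower were 3 (12.5%, against 4.21%). Of the 3, Bju_CS52_R_25274 and Bju_CS52_R_22400 met the minimum of 1 RPKM in CTRL alone, so a log2 ratio below 0 is built into their choice. The 5 unigenes beyond 2-fold all carried the annotation TCP-1/cpn60 chaperonin family protein, a name that covers organellar Cpn60 and the cytosolic TCP-1 ring alike. Of the 17 unigenes with that name, 14 had a log2 ratio below 0, also after centring, after scaling by size factors and after removal of the trend. Before any such scaling, 24841 of all 43250 unigenes and 16628 of the 26722 with an annotation were below 0. The 17 match 13 B. rapa genes, so they are not separate observations.

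The unigenes furthest above 1 belong to a single B. rapa gene, Bra027431. Bju_CS52_R_10549 (570 bp) had 796 reads in SS and 152 in CTRL, which are 15.6 RPKM (14.5 to 16.7) and 2.81 RPKM (2.38 to 3.30). Its ratio was 5.53 (4.65 to 6.62). Bju_CS52_R_25037 (1621 bp) had 5992 reads in SS and 1842 in CTRL, or 41.2 and 12.0 RPKM, a ratio of 3.44 (3.26 to 3.62). The intervals of the SS and CTRL levels do not overlap for either unigene, but the pair was picked for the largest ratios. The interval of the ratio, which covers counting error only, lay above 1 for 20.7% of all unigenes.

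The longest unigene of the same gene did not share this difference. Bju_CS52_R_26641 (1850 bp) had 57.2 RPKM in SS and 55.7 RPKM in CTRL, with a ratio of 1.03 (0.999 to 1.06). The remaining one, Bju_CS52_R_21408 (1245 bp), was lower in SS, at 3.46 RPKM against 5.04 RPKM in CTRL (ratio 0.687, 0.603 to 0.782). The share of the reads of Bra027431 that fell on Bju_CS52_R_25037 and Bju_CS52_R_10549 was therefore 40.7% in SS (6788 of 16679, exact binomial interval 40.0% to 41.4%) and 16.1% in CTRL (1994 of 12359, 15.5% to 16.8%). The study's annotation lists no Arabidopsis match for either of the pair that was higher, and their function within the chaperonin family is not given. Unigenes of a single gene may be copies, isoforms or pieces of a transcript, and reads of near-identical copies can be split between them by the mapping.

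The unigenes furthest below 1 were low in both libraries. Bju_CS52_R_25274 had 65 reads in SS and 350 in CTRL, or 0.438 and 2.23 RPKM, a ratio of 0.196 (0.148 to 0.256). Bju_CS52_R_22400 had 47 reads in SS and 178 in CTRL, or 0.393 and 1.41 RPKM, a ratio of 0.279 (0.198 to 0.387). They match different B. rapa genes (Bra023694 and Bra028922) but the same Arabidopsis gene, AT5G18820, a second alpha subunit of chloroplast Cpn60 needed in the Arabidopsis embryo. Bju_CS52_R_26234, matched to AT2G33210 (HSP60-2, a mitochondrial Cpn60 of Arabidopsis), had 644 reads in SS and 1410 in CTRL and a log2 ratio of -1.03, which centring and the other scalings bring inside 2-fold.

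Outside Bra027431, the 9 TCP-1/cpn60 unigenes that reached 10 RPKM in SS or CTRL differed little, all in one direction. That direction, below 0, was also the one of 24841 of all 43250 unigenes. Their log2 ratios lay between -0.35 and -0.08 and stayed below 0 after centring, size factors and removal of the trend, whereas all 9 were above 0 with the SS values as deposited, which lack the correction for length. The highest, Bju_CS52_R_27055, had 25.4 RPKM in SS and 30.7 RPKM in CTRL, a ratio of 0.827 (0.795 to 0.861). Bju_CS52_R_27231 was lowest in ratio, with 23.8 RPKM in SS and 30.2 RPKM in CTRL (0.786, 0.755 to 0.819), and Bju_CS52_R_28139 was nearest to 1, with 13.1 and 13.9 RPKM (0.946, 0.896 to 0.998). The other 6 were Bju_CS52_R_29090, Bju_CS52_R_26611, Bju_CS52_R_27258, Bju_CS52_R_27251, Bju_CS52_R_26972 and Bju_CS52_R_19336, of which Bju_CS52_R_26611 and Bju_CS52_R_19336 share the gene Bra040591.

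The named chloroplast chaperonins included the 4 most abundant unigenes of the family, and none of the 6 was beyond 1.5-fold. Chaperonin 20 (Bju_CS52_R_19286, AT5G20720), the co-chaperonin lid of the chloroplast barrel, had the highest CTRL level of any folding unigene, at 188 RPKM in SS and 215.4 RPKM in CTRL (ratio 0.873, 0.856 to 0.890). A shorter chaperonin 20 unigene matched to another B. rapa gene, Bju_CS52_R_4768, had 44.9 RPKM in both libraries. Chaperonin-60alpha (Bju_CS52_R_27626, AT2G28000), a barrel subunit, had 110.0 RPKM in SS and 138 RPKM in CTRL, a ratio of 0.797 (0.783 to 0.812).

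Chaperonin 60 beta, the other barrel subunit, had 3 unigenes of 1 gene. The levels were 111 RPKM in SS and 109.5 RPKM in CTRL in Bju_CS52_R_29469, and 81.0 and 81.8 RPKM in Bju_CS52_R_27505. The interval of the ratio held 1 for both. The third, Bju_CS52_R_9876, was low and lower in SS, at 1.72 RPKM against 2.40 RPKM in CTRL on 84 and 124 reads (0.716, 0.536 to 0.952). The interval also held 1 for the Rubisco assembly factor RbcX (Bju_CS52_R_17295, 59.9 RPKM in SS and 60.4 RPKM in CTRL). Chaperonin-60alpha and chaperonin 20 were lower in SS beside green tissue markers with a median log2 ratio of -0.22 (11 of 15 below 0), and the part of these markers in the values was not tested.

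**Figure D2:**
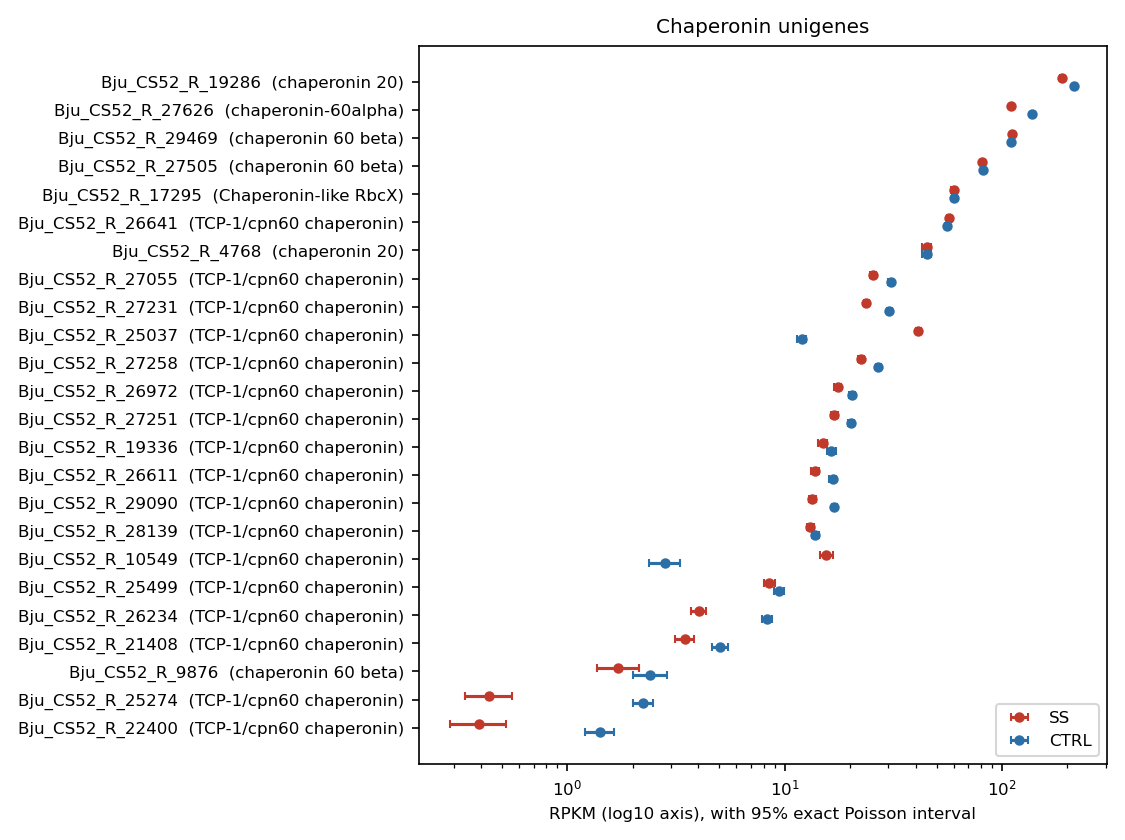
The 24 chaperonin unigenes are ordered by mean RPKM, with SS in red above CTRL in blue on a log10 RPKM axis and bars for 95% exact Poisson intervals. Bju_CS52_R_25037 and Bju_CS52_R_10549 lie far to the right in SS (41.2 and 15.6 RPKM, against 12.0 and 2.81 in CTRL), and the lowest pair of unigenes lies far to the left.

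DNAJ proteins were the largest family, and 156 of their 167 unigenes had a ratio. Of these, 1 was at least 2-fold higher (0.641%, against 1.91% of all unigenes) and 7 were at least 2-fold lower (4.49%, against 4.21%). At 1.5-fold, 2 passed upward (1.28%, against 5.61%) and 18 downward (11.5%, against 12.3%). The shares on the lower side are near the background, and the median was -0.09. Bju_CS52_R_16053, matched to AT4G09350, was the one higher: it had 1796 reads in SS and 839 in CTRL, or 23.4 and 10.3 RPKM, a ratio of 2.26 (2.08 to 2.46). In Arabidopsis that gene encodes CRRJ, a J-domain subunit of the chloroplast NADH dehydrogenase-like complex, which takes part in cyclic electron flow. Bju_CS52_R_16885, matched to AT5G21430, which encodes CRRL of the same complex, had 125 RPKM in SS and 116 RPKM in CTRL (ratio 1.08, 1.05 to 1.11).

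The abundant J-protein furthest below 1 was Bju_CS52_R_21980, matched to AT2G42750. It had 4273 reads in SS and 13540 in CTRL, or 36.8 RPKM (35.7 to 37.9) and 110 RPKM (109 to 112), a ratio of 0.333 (0.322 to 0.345). Of the 11 folding unigenes that were 2-fold lower, it was the one with the highest level. Bju_CS52_R_25379, matched to AT5G23240, was higher in SS, at 149 RPKM against 120 RPKM in CTRL (1.25, 1.22 to 1.27). Both Arabidopsis genes encode J-proteins of the chloroplast. Bju_CS52_R_13298, with the cysteine-rich zinc-finger domain of DnaJ, was the highest DNAJ unigene, at 203 RPKM in SS and 201 RPKM in CTRL, and the interval of its ratio held 1.

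The other DNAJ unigenes furthest from 1 were low. Bju_CS52_R_27050 had 2.37 RPKM in SS and 7.31 RPKM in CTRL, a ratio of 0.324 (0.290 to 0.363). Bju_CS52_R_2436 had 3.53 RPKM in SS and 7.39 RPKM in CTRL (0.477, 0.377 to 0.602). Its log2 ratio fell inside 2-fold after centring (-0.983), size factors (-0.982) and removal of the trend (-0.802). Bju_CS52_R_11995, Bju_CS52_R_26173, Bju_CS52_R_6392 and Bju_CS52_NR_1009 were also at least 2-fold lower, each with under 3 RPKM in both libraries and log2 ratios between -1.20 and -1.04 except Bju_CS52_R_6392 at -1.21 on 15 reads in SS and 42 in CTRL. On the higher side, Bju_CS52_NR_4234 (1.01 RPKM in SS, 0.551 RPKM in CTRL) and Bju_CS52_R_4824, a DnaJ/Sec63 Brl protein of the type that acts at the ER translocon (1.63 and 1.08 RPKM), rested on 33 and 57 SS reads, and the interval of the second held 1. Bju_CS52_R_26761 and Bju_CS52_R_20646, both with a ratio of 1.44, completed the higher side.

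**Figure D3:**
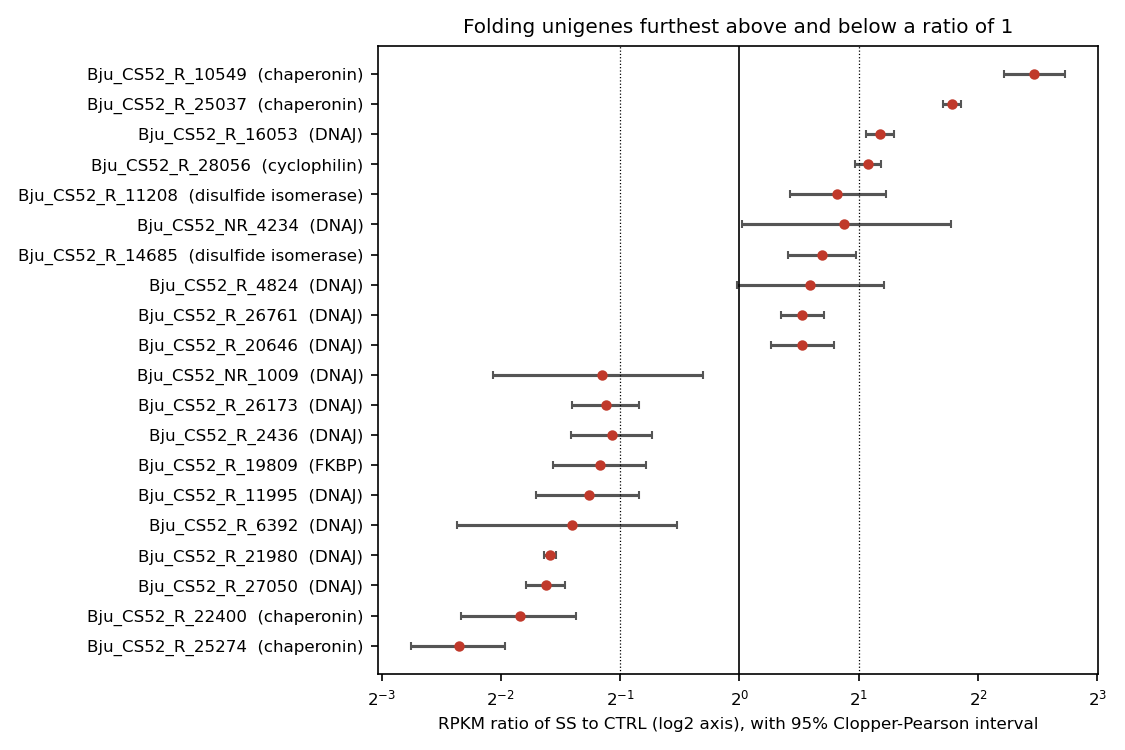
Ratio of SS to CTRL in RPKM, without a pseudocount, on a log2 axis for the 10 folding unigenes highest and the 10 lowest in log2 ratio, among those with at least 20 reads in either library. Bars are 95% Clopper-Pearson intervals for counting error, the solid line marks 1 and dotted lines mark 2-fold. Bju_CS52_R_10549 (5.53) and Bju_CS52_R_25037 (3.44) stand at the top, and Bju_CS52_R_25274 (0.196) at the bottom.

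Annotation classes within the DNAJ family differed in their medians. The class with tetratricopeptide repeats, which are protein-binding motifs, comprised 17 unigenes of 4 B. rapa genes. With no minimum level, all 17 had a log2 ratio below 0, with a median of -0.46 and a range from -1.21 to -0.02. The minimum of 1 RPKM kept 14 of them, of which 5 met it in CTRL alone and none in SS alone, so a ratio below 0 is built into the choice of these 5. The 9 with at least 1 RPKM in both libraries had a median of -0.32. Of the 14, 2 lay above 0 after centring, size factors or removal of the trend. The longest unigene of Bra008888, Bju_CS52_R_27367, had 3.11 RPKM in SS and 4.31 RPKM in CTRL, and that of Bra004626, Bju_CS52_R_25002, had 2.24 and 2.81 RPKM. None of the 17 exceeded 5 RPKM, and since they come from 4 genes they are not 17 separate observations.

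Among the other classes, the DNAJ heat shock N-terminal domain class (40 with a ratio) had the most unigenes past the limits on the lower side. It had 5 that were 2-fold lower (12.5%, against 4.21% of all unigenes) and 11 passing 1.5-fold lower (27.5%, against 12.3%). The 11 include Bju_CS52_R_26173, Bju_CS52_NR_1009 and Bju_CS52_R_15479, which had 0.966, 0.605 and 0.760 RPKM in SS. These met the minimum of 1 RPKM in CTRL alone, so a log2 ratio below 0 is built into their choice. At 1.5-fold higher was 1 (2.5%, against 5.61%), and the median was -0.13. The higher one, Bju_CS52_NR_4234, met the minimum in SS alone. Of the 5, Bju_CS52_R_26173 and Bju_CS52_NR_1009 fell inside 2-fold after centring, size factors or removal of the trend. The class held 43 unigenes in all, and those matched to B. rapa came from 22 genes, so they are not separate observations. The DnaJ-domain superfamily class (56) had 1 beyond 2-fold on each side (1.79% each, against 1.91% higher and 4.21% lower of all unigenes). The lower one, Bju_CS52_R_2436, fell inside 2-fold after centring, size factors or removal of the trend. The median of this class was -0.07. None of the 8 unigenes of the cysteine-rich class and none of the 15 of the DNAJ heat shock family class passed 1.5-fold, and their medians were -0.08 and 0.00.

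In the ER, 3 of the 4 lectin chaperone unigenes were lower in SS, while the PDI-like unigenes lay on both sides of 1. Calnexin 1 (Bju_CS52_R_27016, AT5G61790), the membrane-bound lectin, had 10477 reads in SS and 19536 in CTRL, or 61.0 RPKM (59.8 to 62.2) and 108 RPKM (106 to 109), a ratio of 0.566 (0.553 to 0.580). Calreticulin 1a (Bju_CS52_R_24831, AT1G56340), its soluble relative, had 75.5 RPKM in SS and 109 RPKM in CTRL, a ratio of 0.692 (0.676 to 0.709). Calreticulin 1b (Bju_CS52_R_17196) had 57.0 RPKM in SS and 64.5 RPKM in CTRL (0.884, 0.850 to 0.919). These 3 were lower in SS under each scaling too, while with the SS values as deposited 2 of them were above 0. Calreticulin 3 (Bju_CS52_R_24837), in Arabidopsis a plant-specific form that serves receptor kinases, was instead higher in SS, at 32.6 RPKM against 28.9 RPKM in CTRL (1.13, 1.08 to 1.17).

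The 12 PDI-like unigenes split evenly, with 6 above 0 and 6 below, and none passed 2-fold. The family median was -0.03, and it was above 0 (0.03 to 0.08) after centring, size factors or removal of the trend. PDI-like 1-1 (Bju_CS52_R_26323), the most abundant, had 46.1 RPKM in SS and 39.6 RPKM in CTRL, a ratio of 1.16 (1.12 to 1.20). Highest in ratio were PDI-like 5-4 (Bju_CS52_R_11208), with 2.65 RPKM in SS and 1.499 RPKM in CTRL (1.76, 1.34 to 2.34), and PDI-like 1-5 (Bju_CS52_R_14685), with 3.81 and 2.36 RPKM (1.61, 1.33 to 1.96). Both passed 1.5-fold (16.7% of the family, against 5.61% of all unigenes), on 142 and 264 SS reads.

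A second PDI-like 1-5 unigene, Bju_CS52_R_1154, matched another B. rapa gene and had 5.61 RPKM in SS and 6.60 RPKM in CTRL, with an interval that held 1. Both PDI-like 1-4 unigenes were higher in SS: Bju_CS52_R_27391 had 13.1 RPKM against 10.8 RPKM in CTRL and Bju_CS52_R_27855 had 12.3 RPKM against 11.6 RPKM in CTRL. Both PDI-like 2-3 unigenes were lower: Bju_CS52_R_24375 had 12.6 RPKM in SS and 18.6 RPKM in CTRL (0.679, 0.639 to 0.722), and Bju_CS52_R_24877 had 18.9 and 22.9 RPKM. PDI-like 1-3 (Bju_CS52_R_27089) had 5.32 RPKM in SS and 6.22 RPKM in CTRL. The intervals of PDI-like 5-2 (Bju_CS52_R_23854) and of both PDI-like 5-3 unigenes (Bju_CS52_R_25600 and Bju_CS52_R_8279) held 1.

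**Figure D4:**
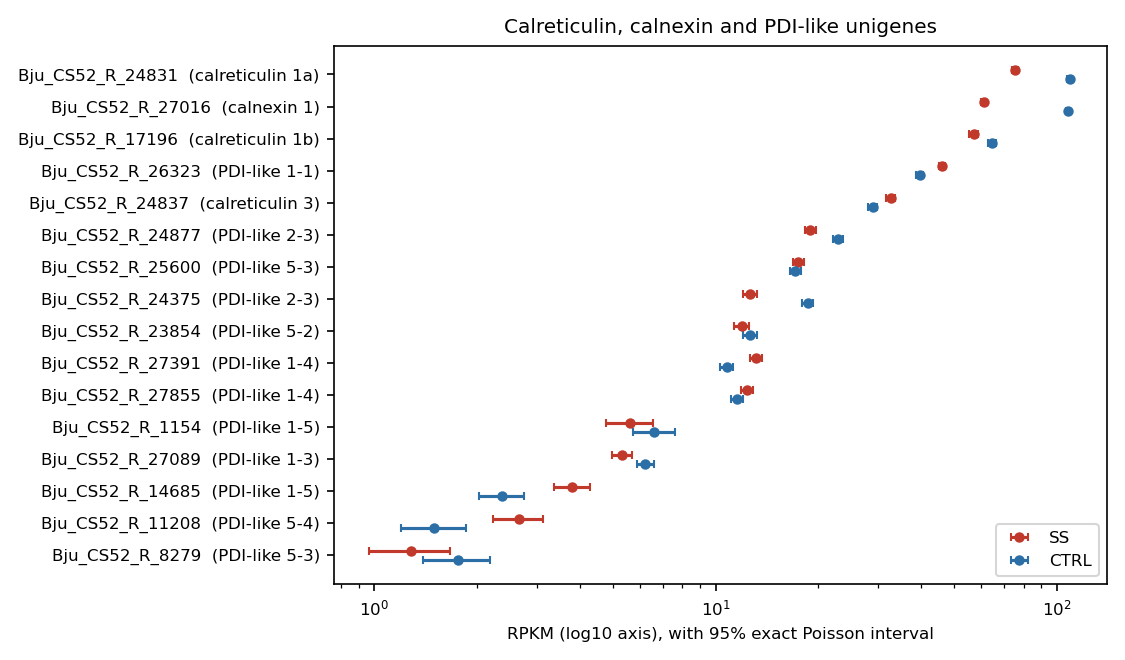
Calreticulin, calnexin and PDI-like unigenes ordered by mean RPKM, SS in red above CTRL in blue, on a log10 RPKM axis with 95% exact Poisson intervals. Calnexin 1 (61.0 RPKM in SS, 108 RPKM in CTRL) and calreticulin 1a (75.5 and 109 RPKM) lie left in SS, and PDI-like 1-1 (46.1 and 39.6 RPKM) lies right.

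The prolyl isomerases were mostly flat. Of the 19 cyclophilin unigenes, 1 passed 2-fold, upward (5.26%, against 1.91% of all unigenes). Another 1 passed 1.5-fold downward (5.26%, against 12.3%), and the median was -0.09. Of the 21 FKBP unigenes, 1 passed 2-fold (4.76%, against 4.21% of all unigenes) and 3 passed 1.5-fold (14.3%, against 12.3%), all downward. The FKBP median was -0.12, or 0.05 once the trend was removed. The cyclophilin beyond 2-fold was Bju_CS52_R_28056, annotated cyclophilin71 (AT3G44600), in Arabidopsis a nuclear WD40-repeat cyclophilin that acts on chromatin. It had 2013 reads in SS and 1008 in CTRL, or 10.4 and 4.92 RPKM, a ratio of 2.11 (1.95 to 2.28). A second, shorter unigene of the same gene, Bju_CS52_R_5656 (411 bp), had 20.2 RPKM in SS and 20.04 RPKM in CTRL, and its interval held 1.

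The 3 most abundant members of each isomerase family differed little. Cyclophilin 20-2 (Bju_CS52_R_18685, AT5G13120), of the thylakoid in Arabidopsis, had 88.4 RPKM in SS and 101 RPKM in CTRL. Cyclophilin 38 (Bju_CS52_R_25281), which in Arabidopsis helps photosystem assembly in the lumen, had 69.5 and 78.4 RPKM. The third, Bju_CS52_R_24870, had 61.5 and 69.8 RPKM, so that all 3 had ratios between 0.872 and 0.886. A second unigene of the cyclophilin 20-2 gene, Bju_CS52_R_15340, had 6.92 RPKM in SS and 11.1 RPKM in CTRL (0.623, 0.557 to 0.696). It was the cyclophilin past 1.5-fold lower. Outside the members, Bju_CS52_NR_18437, annotated as a CYP20-2-like isomerase, had 83.2 and 80.0 RPKM (1.04, 1.01 to 1.07). The 3 highest FKBP unigenes, Bju_CS52_R_17230 (187 RPKM in SS, 179 RPKM in CTRL), Bju_CS52_R_18570 (178 and 176 RPKM) and Bju_CS52_R_18749 (137 and 130 RPKM), had ratios between 1.01 and 1.05. The FKBP beyond 2-fold, Bju_CS52_R_19809, was low, at 0.801 RPKM in SS and 1.80 RPKM in CTRL (0.445, 0.338 to 0.580). It met the minimum of 1 RPKM in CTRL alone.

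Unigenes that share a B. rapa gene could be set beside each other. The folding unigenes match 152 B. rapa genes, and 10 match a UniProt entry instead. Of these genes, 46 had at least 2 unigenes with a ratio. The distance between their highest and lowest log2 ratio had a median of 0.32, against 0.36 over 5777 B. rapa genes in all. It was at least 1 for 4 genes (8.70%, against 10.1%): Bra027431 (2.96), the DNAJ genes Bra008143 (1.32) and Bra008888 (1.16), and Bra019430, the cyclophilin71 gene (1.05). None of the 46 folding genes had unigenes past 1.5-fold on both sides, and only 56 of the 5777 B. rapa genes did. With so low a share over all genes, none among 46 is near the background.

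**Figure D5:**
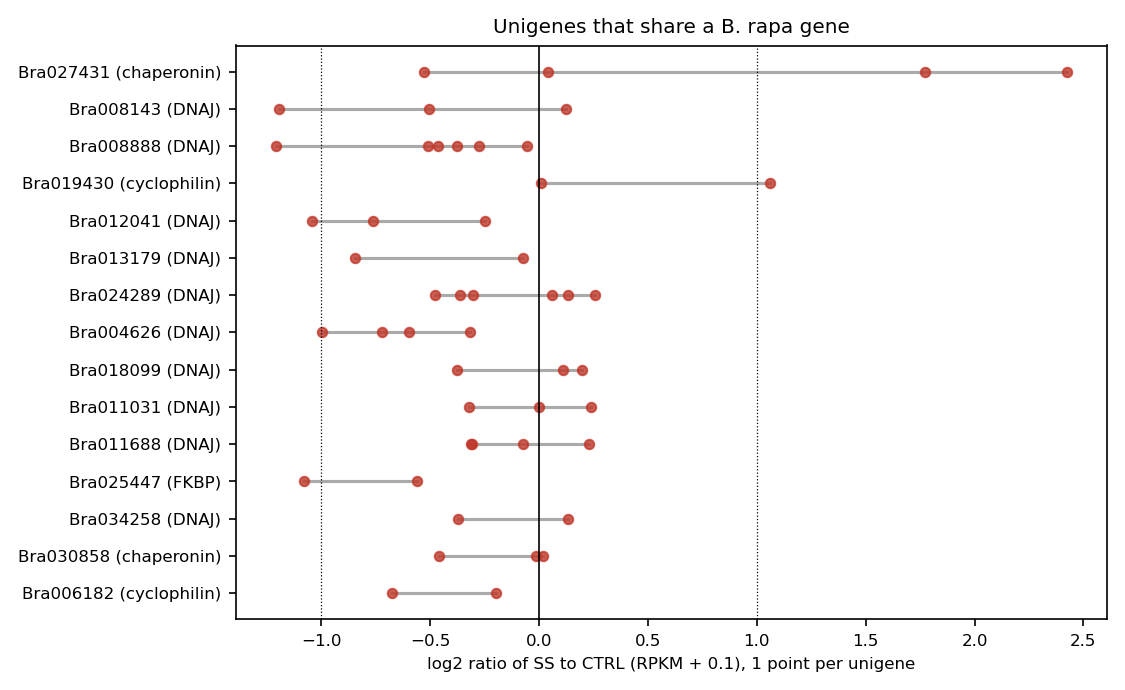
Log2 ratio of SS to CTRL (0.1 RPKM added to both) of each unigene, with 1 row per B. rapa gene, for the 15 folding genes with the widest distance between their unigenes. Dotted lines mark 2-fold. The unigenes of Bra027431 extend over 2.96 log2 units, and the row of cyclophilin71 (Bra019430) holds one point near 0 and one beyond 2-fold.

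Other folding genes, outside the words that chose the members, lay as follows. One list held ER folding and quality control genes (oxidoreductins, the glycoprotein glucosyltransferase, oligosaccharyltransferase, derlins and IRE1). In it, 1 of 19 was 2-fold lower (5.26%, against 4.21% of all unigenes) and 3 passed 1.5-fold lower (15.8%, against 12.3%). None passed 1.5-fold higher, and the median was 0.02. HSP70 and HSP90 words, which also caught HSP90-like ATPases that are not chaperones, gave 39 unigenes with a ratio and a median of -0.28. Of these, 1 was 2-fold higher (2.56%, against 1.91% of all unigenes) and 2 were 2-fold lower (5.13%, against 4.21%). At 1.5-fold lower were 10 (25.6%, against 12.3%). Ribosome-bound chaperones, prefoldins and GrpE, the nucleotide exchange factor of organellar HSP70, had a median of -0.28. Of these 19, 1 was 2-fold lower (5.26%, against 4.21% of all unigenes) and 4 passed 1.5-fold lower (21.1%, against 12.3%). The 3 isomerases under other names had none past 1.5-fold and a median of 0.26. Cyclophilins annotated as rotamase CYP, a name added after the values were seen, gave 4 unigenes with a ratio, of which 1 passed 1.5-fold higher, with a median of -0.03. That one was rotamase CYP 1 (Bju_CS52_R_14377), at 79.2 RPKM in SS and 49.7 RPKM in CTRL (1.60, 1.53 to 1.67), and the most abundant was rotamase CYP 3 (Bju_CS52_R_15971), at 830.2 and 841 RPKM (0.988, 0.977 to 0.998). The medians of the HSP70 and HSP90 list and of the ribosome-bound list were below 0 under each scaling, with the first at -0.12 once the trend was removed, whereas with the SS values as deposited the first was 0.19.

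Heat shock genes form the list most like the folding unigenes. Without the members, 114 unigenes with heat shock words had a ratio, with a median of -0.13. Of these, 2 were 2-fold higher (1.75%, against 1.91% of all unigenes) and 5 were 2-fold lower (4.39%, against 4.21%). At 1.5-fold, 6 were higher (5.26%, against 5.61%) and 22 lower (19.3%, against 12.3%). The 74 folding unigenes whose own annotation says heat shock had the same median of -0.13, with none 2-fold higher and 6 (8.11%) 2-fold lower. No difference between these lists was tested.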

How the data were processed

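Poly(A) RNA of pooled seedlings, 1 library each for SS and CTRL, was sequenced as paired-end reads. The authors split reads by alignment to B. rapa with Tophat, assembled them with Trinity, clustered transcripts with CD-HIT-EST 4.6.1, discarded poorly covered ones and mapped reads to the unigenes with BOWTIE2. DESeq is named in the study's methods and in the submitters' processing notes. Versions of the other tools: not given in the sources used here.

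The deposited CTRL column is RPKM on each unigene's own length, as the authors calculated it. The deposited SS column is named RPKM but holds a signal without length correction: 100% of its 47505 values were whole multiples of 1 step within 0.01 read. The planned design took both columns as RPKM, so the SS column was converted. Lengths were recovered as those giving whole CTRL reads while rising with the unigene number: 47390 of 47392 unigenes with a CTRL value above 0 had a single length, as had all 247 folding unigenes. The recovery was tested on simulated data.

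Ratios used a pseudocount of 0.1 RPKM and a minimum of 1 RPKM in either library, and those printed without log2 carry none. A log2 ratio understates the change of low unigenes. Unigenes without a listed value in either library (10) were left out. Intervals (95%, exact Poisson for levels, Clopper-Pearson for ratios and shares) came from SciPy 1.17.1. No count test was run, since 1 library per condition leaves no replicate spread.

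Named unigenes were the 10 highest and 10 lowest log2 ratios among those with at least 20 reads in either library, the 3 most abundant of each family, all calreticulins, calnexins and PDI-like proteins, and chaperonins with at least 10 RPKM in either library. Others were named after their values were seen: Bju_CS52_R_26234, Bju_CS52_R_21408, Bju_CS52_R_5656, Bju_CS52_R_27367, Bju_CS52_R_25002, Bju_CS52_R_15479, Bju_CS52_R_15340 and Bju_CS52_NR_18437. Members and lists were chosen with earlier results of these data known. Arabidopsis identifiers came from the study's annotation tables. Alternatives were other pseudocounts and minimums, centring, size factors, removal of a running trend, a wider word list and the SS values as deposited. Leaving out Bra027431 and summing per matched B. rapa gene or UniProt entry were added after seeing the data.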

Additional observations from a re-analysis of the deposited data

How the results depend on the processing

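The main counts were 4 folding unigenes 2-fold higher and 11 lower, 7 and 26 at 1.5-fold, and a median log2 ratio of -0.10. A pseudocount of 1 RPKM left 3 at 2-fold lower, 4 at 1.5-fold higher and 14 at 1.5-fold lower (1.27%, 1.69% and 5.93%, against 1.49%, 3.05% and 6.06% of all unigenes). A minimum of 5 RPKM left 4, 4 and 7 in these classes (3.15%, 3.15% and 5.51%, against 2.18%, 4.36% and 6.40%). Centring and size factors each gave 7 at 2-fold lower (2.97%, against 3.56% and 3.58%), with medians of -0.0400 and -0.0373, and removal of the trend gave 6 (2.54%, against 3.25%) and a median of -0.0256; centring shifted the median of all unigenes by 0.06. With the SS values as deposited, which keep the length of the unigene in the ratio, 37 were 2-fold higher and 39 lower (15.7% and 16.6%, against 16.6% and 21.6% of all unigenes), 79 and 56 passed 1.5-fold (33.6% and 23.8%, against 29.0% and 34.5%), the median was 0.20, and 25 of the 59 named unigenes took the other sign. Without the unigenes of Bra027431, 2 were 2-fold higher. RPKM summed per matched B. rapa gene or UniProt entry gave 1 and 7 at 2-fold and 4 and 17 at 1.5-fold over 155 such entries. Shares over all unigenes summed in this way were not taken, so these counts have no background beside them. A pseudocount of 0.01 RPKM, no minimum and a wider word list kept the main counts within 1.5 times. The wider list added only 16 unigenes, of which 12 carried the word GroES-like. With so few added, and most of them by that word, the wider list says little about how the choice of members affects the counts. Of the 14 named unigenes at 2-fold or more, 3 fell inside it with size factors. Under centring, size factors or removal of the trend, 3 of the 59 named unigenes changed sign.

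No paired analysis was possible because each condition has 1 library, and for the same reason no replicate was left out. Depth limits the low unigenes: 164 of 247 were under 10 RPKM in both libraries.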
